A study of Mus musculus with 2 samples.

Results

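Collagen genes were read here across the nuclear classes of mouse brain: the 44 genes, of 32285 in each count table, whose symbol is Col, a number, the letter a and a number. Membership follows from the symbol alone and uses no measured value. All 44 were listed in both tables, and 38 of them had at least 10 unique molecular identifiers (UMIs, each standing for 1 captured RNA molecule) in the adult library and 44 in the embryonic one. Slide-tags tags the nuclei of a frozen section with spatial barcodes from a bead array before ordinary droplet sequencing of single nuclei. One library came from a coronal section of the hippocampus of a perfused male C57BL/6J mouse aged 56 days, and the other from a sagittal section of the brain of a whole, snap-frozen C57BL/6J embryo at embryonic day 14 (E14). The dam of the embryo was perfused with saline, and both sections were 20 µm thick. Each tissue is 1 library of 1 animal, so no comparison below has a p-value, and age, brain region, sex and library preparation cannot be told apart between them.

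Collagens are proteins of 3 chains wound into a triple helix. Fibrillar collagens such as types I and III give connective tissue its strength, collagen IV forms the sheet of the basement membrane around vessels and under the meninges, and other members bind to fibrils, form lattices or span the plasma membrane. Brain parenchyma holds little fibrillar collagen, which is known mainly from the meninges, the choroid plexus stroma and the vessel wall.

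The filters left 1609 adult nuclei with 15346746 UMIs and 9036 E14 nuclei with 58923882 UMIs. Levels are given as CPM, a class's UMIs of the gene scaled to a total of 1000000 UMIs, with exact Poisson 95% intervals, which cover counting error only and take UMIs of 1 nucleus as independent. Classes were set from UMIs of non-collagen markers and hold 1039 adult and 2749 E14 nuclei; 570 and 6287 nuclei stayed without a class. Of the 25 classes with at least 20 nuclei, each had its own markers among its 10 leading genes and no other list had more. In the adult the fibroblast and choroid plexus markers picked out 1 nucleus each, neither with a marker of its list among its 10 leading genes, and the mural class held 5, so the adult data say nearly nothing of these cells. Xist stood at 1.95 CPM in the adult and 1996 CPM at E14 and 4 Y-linked genes at 326 and 0.747 CPM. The adult values are those of a male and the E14 values those of a female, though the labels give no sex for the embryo. Ttr, a choroid plexus secretory transcript, stood at 0.261 and 1211 CPM. One barcode was shared by both libraries.

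Promoters of 5 collagen genes are shown because Col4a1 with Col4a2 and Col1a2 with Col3a1 were highest in the same class, and Col25a1 was highest in neurons. They are RefSeq windows of GRCm38.p6, from 250 bases before to 50 bases after the start, 5′ to 3′ on the strand of the gene, and capitals mark 3 short motifs on either strand. They are the CCAAT box, the GC box (its letters are GGGCGG) and the TATA box (its letters are TATAAA).
Col4a1, chr8:11312777-11313076, minus strand: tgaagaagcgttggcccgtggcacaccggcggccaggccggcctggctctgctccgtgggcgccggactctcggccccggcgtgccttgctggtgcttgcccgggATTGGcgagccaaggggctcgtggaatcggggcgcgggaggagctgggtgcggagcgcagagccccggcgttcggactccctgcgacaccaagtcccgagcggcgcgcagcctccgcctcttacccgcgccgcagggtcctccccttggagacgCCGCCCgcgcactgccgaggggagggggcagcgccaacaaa
Col4a2, chr8:11312555-11312854, plus strand: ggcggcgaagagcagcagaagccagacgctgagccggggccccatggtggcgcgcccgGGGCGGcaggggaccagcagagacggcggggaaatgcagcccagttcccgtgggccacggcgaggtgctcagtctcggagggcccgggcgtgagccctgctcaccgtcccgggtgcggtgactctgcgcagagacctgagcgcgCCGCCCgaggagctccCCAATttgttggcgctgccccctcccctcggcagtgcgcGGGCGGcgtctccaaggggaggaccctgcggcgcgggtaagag
Col1a2, chr6:4505368-4505667, plus strand: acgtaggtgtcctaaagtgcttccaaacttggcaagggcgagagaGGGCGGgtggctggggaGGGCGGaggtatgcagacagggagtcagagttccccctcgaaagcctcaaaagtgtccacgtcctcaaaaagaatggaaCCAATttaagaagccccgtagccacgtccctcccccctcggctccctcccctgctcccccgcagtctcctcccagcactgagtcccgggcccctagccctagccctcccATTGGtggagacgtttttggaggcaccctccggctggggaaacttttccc
Col3a1, chr1:45311288-45311587, plus strand: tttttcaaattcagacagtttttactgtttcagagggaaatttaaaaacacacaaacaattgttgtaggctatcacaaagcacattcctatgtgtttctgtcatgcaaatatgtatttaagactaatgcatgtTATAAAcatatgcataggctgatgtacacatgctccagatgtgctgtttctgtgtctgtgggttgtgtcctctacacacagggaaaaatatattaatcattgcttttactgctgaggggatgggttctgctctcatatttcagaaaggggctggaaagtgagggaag
Col25a1, chr3:130180595-130180894, plus strand: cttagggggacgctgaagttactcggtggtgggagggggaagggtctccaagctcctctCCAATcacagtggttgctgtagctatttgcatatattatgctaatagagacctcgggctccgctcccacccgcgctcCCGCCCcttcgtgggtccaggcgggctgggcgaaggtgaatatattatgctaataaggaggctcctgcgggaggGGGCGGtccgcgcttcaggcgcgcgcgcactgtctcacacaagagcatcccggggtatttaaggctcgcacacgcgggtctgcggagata

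The Col4a1 and Col4a2 windows share 78 bases, since both genes start there on opposite strands with 21 bases between the starts. Col1a2 and Col3a1, by contrast, were highest in the same class with unlike windows: Col1a2 had 61.0% G and C and 2 GC boxes, and Col3a1 had 37.7%, no CpG and no GC box. The Col25a1 window lies inside the GENCODE model of the gene, which begins at base 130131501. The Col1a2 window also lies inside its model, which begins at base 4504814. Their windows thus surround a start other than the first base of the model. Of the 44 collagens, 35 had a window, some more than 1. The GC box was found in 23 of 38 collagen windows and in 35.7% of 32851 windows of all genes, CCAAT in 13 and 37.4%, and TATAAA in 5 and 13.6%. These are matches of letters, not sites.

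At E14 all collagens together stood at 7618 CPM in the 278 mesenchyme-like nuclei, 5005 in the 161 endothelial-like nuclei, 2624 in the 36 mural-like nuclei and 1506 in the 55 choroid plexus-like nuclei. The 1565 neuronal nuclei of all classes together stood at 471 CPM and the 23 erythroid nuclei at 563 CPM. The erythroid nuclei had a median of 8993 UMIs, and no E14 cluster was named erythroid. Whether they are free of other cells, and so give a clean background, was not tested. In the adult the highest levels were 1090 CPM in 25 inhibitory nuclei and 1077 CPM in 52 endothelial-like nuclei, whose intervals overlapped, and the lowest was 132 CPM in 249 oligodendrocyte-like nuclei. Nuclei without a class stood at 716 CPM at E14 and 348 CPM in the adult. They held 26823 of 64049 collagen UMIs at E14 and 2218 of 5478 in the adult. After each nucleus was thinned to 1000 UMIs, 97.0% of 270 mesenchyme-like nuclei held a collagen UMI and 84.8% held UMIs of 3 or more collagens, against 50.0% and 4.55% of 22 erythroid nuclei.

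**Figure D1:**
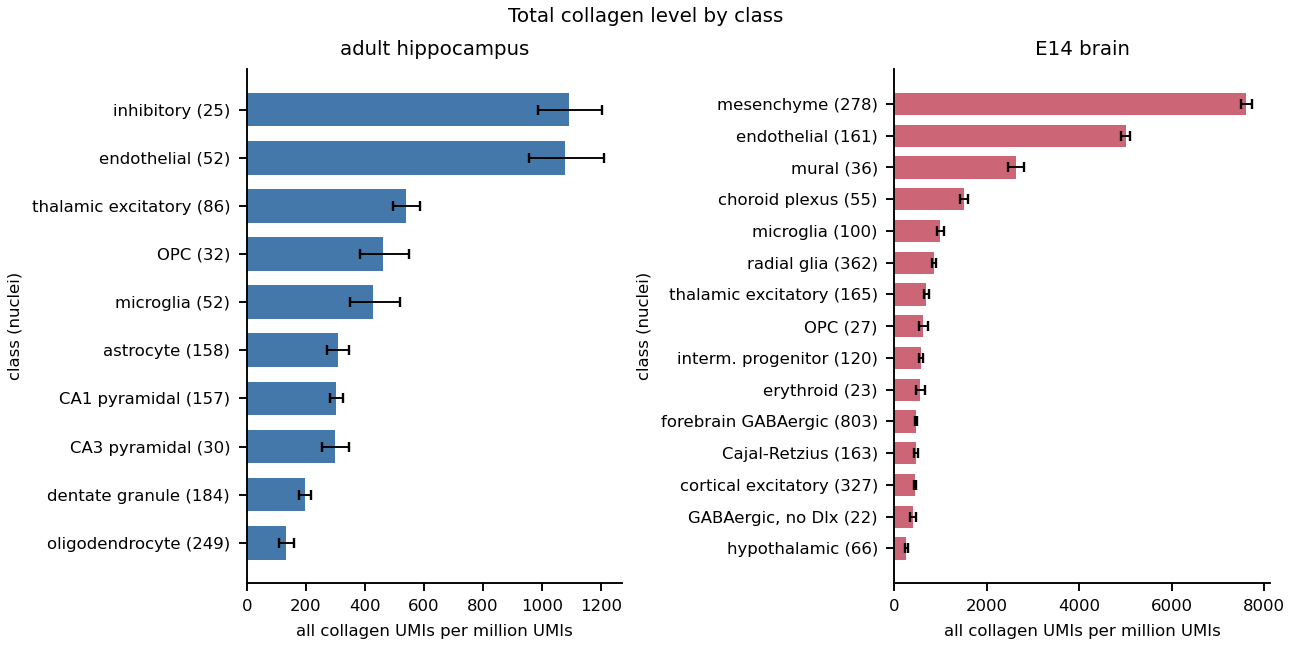
Bars give the summed level of the 44 collagen genes, in CPM, for each class with at least 20 nuclei (nuclei in parentheses), adult on the left and E14 on the right with its own axis; error bars are exact Poisson 95% intervals. The mesenchyme-like class stood at 7618 at E14, and inhibitory and endothelial-like nuclei at 1090 and 1077 in the adult.

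At E14 the mesenchyme-like class carried the widest set of collagens. Of 43 collagens with at least 10 UMIs among classed nuclei, 28 were at least 2-fold higher there than in the other classed nuclei, where 11.1% of all genes tested were, and for 27 the interval of the ratio lay above 1 (8.53% of all genes). Col19a1, Col4a3 and Col17a1 were at least 2-fold lower (3 of 43, against 8.28%), and the interval was clear of 1 for Col19a1 (1 of 43, against 4.45%). The median log2 ratio was 1.91 over the collagens and 0.01 over all genes.

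The fibrillar chains came first by role. Col3a1, the chain of collagen III, stood at 1126 CPM (1079.7 to 1173) in 254 of 278 mesenchyme-like nuclei, with 236 CPM in endothelial-like and 120 CPM in mural-like nuclei, and was 29.1-fold higher (95% interval 26.8 to 31.6) than in the other classed nuclei. Col1a1 and Col1a2, the 2 chains of collagen I, stood at 463 CPM and 636 CPM, with ratios of 43.0 and 36.7. Per kilobase of gene these 3 were the highest collagens of the class, at 29.5 CPM per kilobase for Col3a1, 27.5 for Col1a1 and 17.3 for Col1a2. Thinned to 1000 UMIs, 62.6% of mesenchyme-like nuclei held a Col3a1 UMI, against 12.3% of endothelial-like nuclei, 1.11% of 1530 neuronal nuclei and 0 of 22 erythroid nuclei, whose exact upper bound is 15.4%; the medians before thinning were 4629, 8879, 4661 and 8993 UMIs. Col5a2 and Col5a1, chains of collagen V, which is built into collagen I fibrils, stood at 395 and 103 CPM, with ratios of 6.89 and 8.62.

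The low collagen I and III level of E14 neurons was a small part of the mesenchyme-like level for each gene. Col1a1 in neuronal nuclei was 0.660% of its mesenchyme-like level, Col3a1 0.715%, Col1a2 0.946%, Col6a3 0.639% and Col13a1 0.508%. Other collagens stood nearer to the mesenchyme-like level: Col5a2 at 6.24%, Col11a1 at 47.8%, Col25a1 at 98.8% and Col9a3 at 132%. In erythroid nuclei Col1a1 had no UMI, and Col3a1 stood at 0.355%, Col1a2 at 1.88%, Col5a2 at 8.10% and Col25a1 at 130%. The part of free RNA in these levels was not tested.

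Collagen VI, a beaded filament around cells, followed the same class. Col6a1, Col6a2 and Col6a3 stood at 70.6, 65.6 and 116 CPM in mesenchyme-like nuclei and at 10.3, 12.3 and 28.5 CPM in endothelial-like nuclei, the next highest. Col6a6 stood at 26.8 CPM there and was 34.8-fold higher (19.3 to 66.3) than in the other classed nuclei. Col6a4 and Col6a5, further chains of this family, had 4 and 1 UMIs in the class.

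Of the 4 membrane-spanning collagens, Col13a1 and Col23a1 were at least 2-fold higher in this class, Col25a1 had a ratio of 1.15 and Col17a1 a single UMI. Col13a1, a collagen of cell adhesion sites, had the largest ratio of all, 64.3 (46.7 to 90.4), at 146 CPM in 144 of 278 nuclei. Col23a1 stood at 959 CPM (916 to 1002), 28.4-fold above the other classed nuclei (46.8-fold by the mean over nuclei), with 102 CPM in endothelial-like and 101 CPM in microglia-like nuclei. Among neuronal classes of at least 20 nuclei Col23a1 was highest, at 87.9 CPM (69.0 to 110), in Cajal-Retzius nuclei, early-born neurons of the cortical surface, where 27 of 163 nuclei held its 74 UMIs. The others stood between 5.39 and 12.3 CPM for Col23a1. Col26a1 stood at 289 CPM in the mesenchyme-like class and at 125 CPM in mural-like nuclei.

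**Figure D2:**
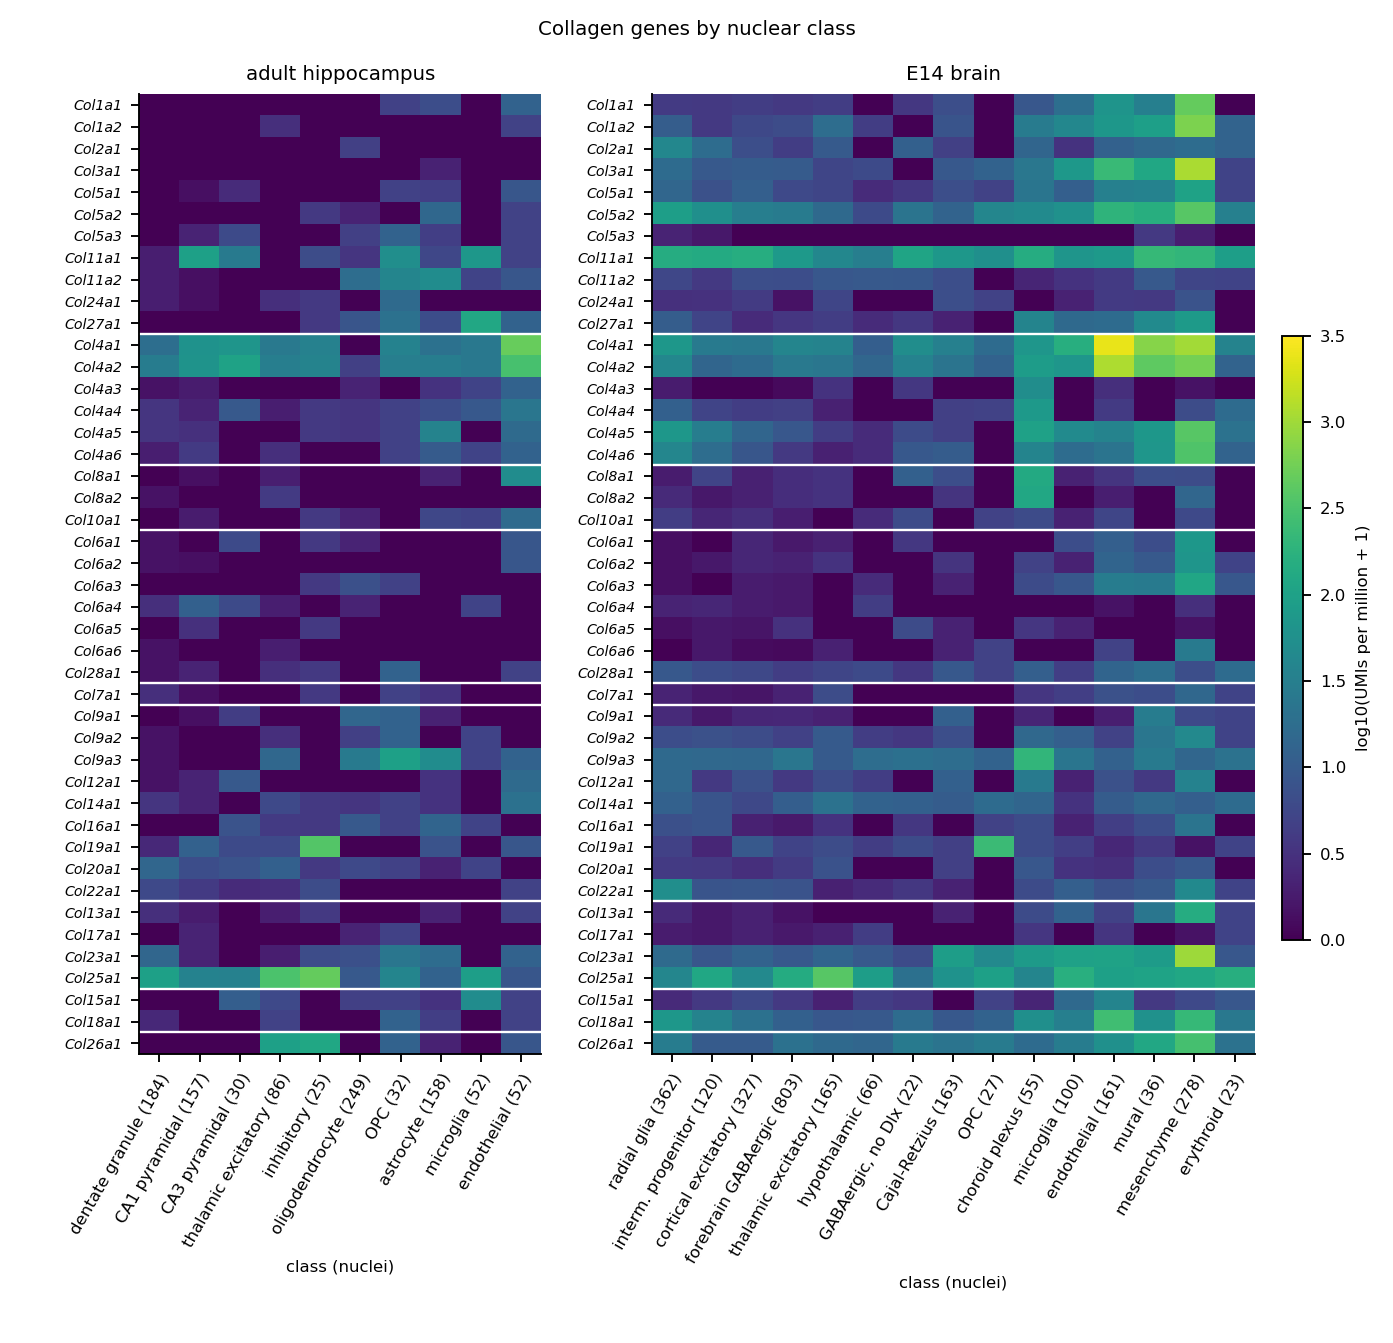
Colour gives log10 of CPM plus 1 for each collagen gene (rows, grouped by structural family between white lines) in each class with at least 20 nuclei (columns, nuclei in parentheses), adult on the left and E14 on the right on 1 colour scale. At E14 13 genes stood clear in the mesenchyme-like column, 5 in choroid plexus and 4 in endothelial, and in the adult 3 stood clear in endothelial.

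A stricter reading asked in which class each gene was highest with an interval clear of every other class. At E14, 24 of 43 collagens had such a class, against 10.1% of 19322 genes. The mesenchyme-like class had 13 of them (Col1a1, Col1a2, Col3a1, Col4a5, Col4a6, Col5a1, Col5a2, Col6a1, Col6a2, Col6a3, Col13a1, Col23a1 and Col26a1; 1.32% of all genes), choroid plexus 5 (1.93%) and endothelial 4 (1.94%), and 1 each stood in thalamic neurons (0.393%) and oligodendrocyte precursors (0.191%). In the adult, 7 of 31 did, against 17.6% of 16750 genes, a share near that of genes at large. Of these, Col4a1, Col4a2 and Col8a1 stood clear in endothelial-like nuclei (3 genes, against 4.29%), Col19a1 and Col25a1 in inhibitory nuclei (2, against 0.907%) and Col15a1 and Col27a1 in microglia-like nuclei (2, against 2.02%). Col8a1 was also among the 10 leading genes of the 5 adult mural-like nuclei, too few to compare, which held 7 UMIs of it, or 338 CPM.

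The basement membrane collagens were led by different classes, pair by pair. Col4a1 and Col4a2 encode the 2 chains of the common collagen IV network. At E14 Col4a1 stood at 2394 CPM (2327 to 2462) in endothelial-like nuclei, 1032 in mesenchyme-like, 741 in mural-like and 31.8 in neuronal nuclei, and Col4a2 at 1159, 581, 431 and 21.1 CPM. In the adult endothelial-like nuclei Col4a1 stood at 479 CPM (399 to 571) and Col4a2 at 303 CPM (240 to 377). Both genes were led by endothelial-like nuclei in both libraries. Thinned to 1000 UMIs, 72.1% of 154 E14 endothelial-like nuclei held a Col4a1 UMI, against 4.12% of E14 neuronal and 4.55% of 22 erythroid nuclei, and 31.2% of 48 adult endothelial-like nuclei did, against 0 of 231 oligodendrocyte-like nuclei (exact upper bound 1.58%). The medians of the adult classes before thinning were 3372 and 2870 UMIs.

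The ratio of Col4a1 to Col4a2 was not the same everywhere. It was 2.07 (1.97 to 2.17) in E14 endothelial-like nuclei, 1.77 (1.65 to 1.91) in mesenchyme-like, 1.51 (1.27 to 1.79) in neuronal and 0.8 (0.545 to 1.17) in choroid plexus-like nuclei. In the adult it was 1.58 (1.18 to 2.12) in endothelial-like nuclei and 0.824 (0.696 to 0.975) in neuronal nuclei, with 0.614 (0.391 to 0.952) in dentate granule nuclei. The neuronal and endothelial-like intervals did not overlap in either library. The 2 genes overlap by 22 bases at their starts, which lie on opposite strands.

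**Figure D3:**
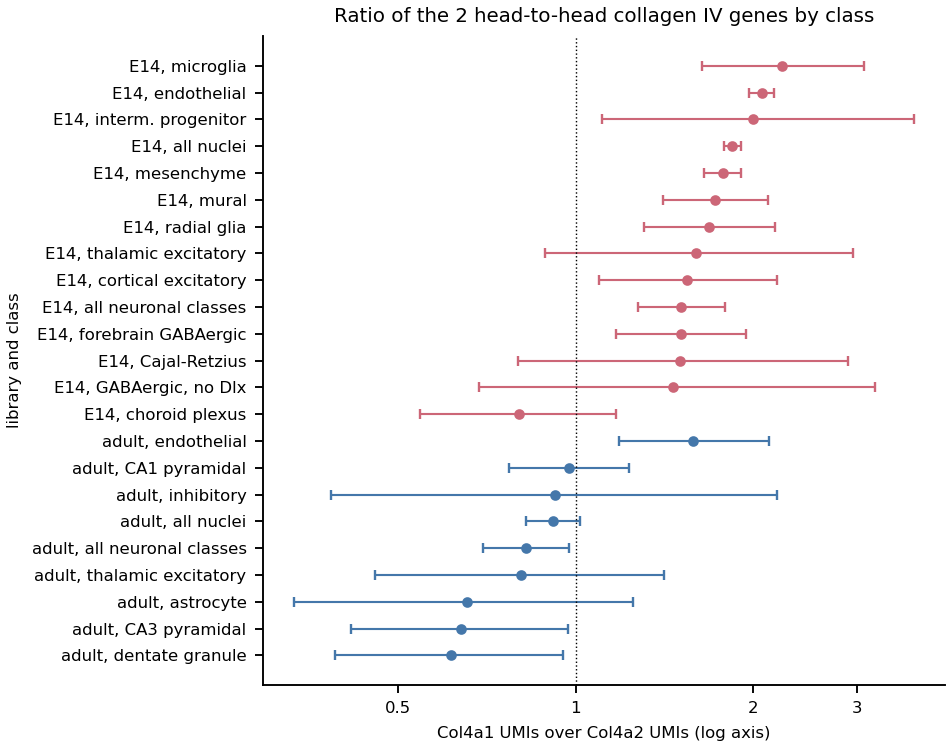
Points give Col4a1 UMIs divided by Col4a2 UMIs on a log axis for each class with at least 20 UMIs of both together, with exact 95% intervals; adult in blue, E14 in red, and the dotted line marks 1. The adult neuronal classes together sit at 0.824 and the E14 endothelial-like class at 2.07.

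Col4a5 and Col4a6, the X-linked pair of collagen IV chains that also lie head to head, were led by the mesenchyme-like class at 386 and 337 CPM and not by endothelium, where they stood at 36.3 and 21.1 CPM. Choroid plexus-like nuclei were next for Col4a5, at 99.3 CPM. Radial glia, the neural stem cells whose endfeet meet the pial basement membrane, held 69.3 and 39.2 CPM of Col4a5 and Col4a6, and E14 neurons 8.88 and 4.91. In the adult Col4a5 stood at 35.6 CPM (24.2 to 50.5) in astrocytes and 1.86 CPM in neurons. Both lie on the X chromosome, and by the Xist values above the libraries differ in sex.

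Col4a3 and Col4a4, the remaining, autosomal pair, were highest in choroid plexus-like nuclei at E14. Col4a3 stood at 51.0 CPM (36.3 to 69.7) with 39 of its 50 UMIs among compared classes there, and Col4a4 at 78.4 CPM (59.8 to 101) in 27 of 55 nuclei. Neither had 10 UMIs in any compared adult class except Col4a4 in the neuronal classes together, with 15. Col15a1 and Col18a1, multiplexins that sit in basement membranes, were led by E14 endothelial-like nuclei at 36.8 and 266 CPM, and Col18a1 stood at 222 CPM in mesenchyme-like nuclei. In adult endothelial-like nuclei each had 1 UMI.

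The choroid plexus-like class led 3 more collagens at E14. Col8a1 and Col8a2, the chains of a lattice collagen known under endothelial and corneal cells, stood at 132 CPM (108 to 160) and 124 CPM (100 to 152), and the next highest classes at 10.8 and 13.4 CPM. Col9a3, a chain of a collagen best known on cartilage fibrils, stood at 203 CPM (172 to 237) in 41 of 55 nuclei, with 25.7 CPM next. The other chains of that trimer, Col9a1 and Col9a2, stood at 1.31 and 14.4 CPM, and the class led neither of them. Col9a3 overlaps Tcfl5 on the opposite strand. Thinned to 1000 UMIs, 14.8% of 54 choroid plexus-like nuclei held a Col9a3 UMI and 9.26% a Col8a1 UMI, against 4.55% and 0% of 22 erythroid nuclei; the medians before thinning were 12113 and 8993 UMIs.

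Endothelial-like nuclei at E14 had a narrow collagen set. Of 43 collagens 10 were at least 2-fold higher than in the other classed nuclei, against 12.4% of all genes, and 10 were at least 2-fold lower, against 9.76%; the interval was clear of 1 for 8 (10.1% of all genes) and 10 (5.68%). The median log2 ratio was -0.13. The 4 highest ratios were those of Col4a1 (15.0), Col4a2 (12.5), Col15a1 (9.78) and Col18a1 (5.63). In the adult endothelial-like nuclei 17 of 32 collagens were at least 2-fold higher, against 23.2% of all genes, but 14 of them rested on 1 to 6 UMIs, and for 8 the interval of the ratio lay above 1 (17% of all genes). Col8a1 led those 8, at 49.8 CPM (26.5 to 85.2), 36.2-fold (15.2 to 86.8) above the other adult classes; its 13 UMIs came from 5 of 52 nuclei.

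Col22a1, a collagen of tissue junctions, stood at 52.8 CPM (44.1 to 62.8) in radial glia, 5.21-fold above the other classed nuclei (3.47-fold with classes from clusters), with 45.2 CPM in mesenchyme-like nuclei and 5.55 CPM in neurons. Col2a1, the chain of cartilage collagen II, stood at 40.4 CPM (32.8 to 49.3) in radial glia, in 75 of 362 nuclei, and at 4.63 CPM in neurons. The 3 cartilage-like nuclei, too few to compare, held 82 Col2a1 UMIs, 125 Col11a1 UMIs and 38 Col9a1 UMIs among 27643 UMIs. In the adult Col2a1 had 3 UMIs in all.

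Neuronal classes as a whole were low in collagens at E14. Against the other classed nuclei 31 of 43 collagens were at least 2-fold lower, against 19.7% of all genes, and 1, Col6a5, at least 2-fold higher (3.11% of all genes) with an interval that included 1, so that 0 of 43 were clear of 1 (2.2%). In the adult 7 of 32 were at least 2-fold higher, against 14.9% of all genes, and 20 at least 2-fold lower, against 24.7%. The 7 were Col22a1, Col19a1, Col26a1, Col6a4, Col25a1, Col20a1 and Col11a1. The interval of the ratio lay above 1 for each of the 7 (12.2% of all genes) and below 1 for 18 of the 20 (23.2%).

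Col25a1, a membrane-spanning collagen of neurons, first found in amyloid plaques and known to act in motor innervation, was high in thalamic neurons of both libraries. It stood at 393 CPM (353 to 436) in 165 E14 thalamic-like nuclei and at 320 CPM (286 to 357) in 86 adult ones, 4.23-fold and 4.85-fold above the other classed nuclei of the same library. The adult level was 0.814 (0.698 to 0.949) of the E14 level, and this order turned to 1.20 when classes came from clusters. The spread over nuclei was uneven, since 35 of 165 E14 nuclei held all 352 UMIs and 1 of them 73, against 47 of 86 adult nuclei with at most 23.

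In the adult, inhibitory nuclei held still more Col25a1, 476 CPM (408 to 553), dentate granule nuclei 95.1 CPM and CA1 pyramidal nuclei 34.2 CPM. At E14 Col25a1 was found in every class compared. After thalamic-like nuclei the highest were microglia-like nuclei, at 159 CPM (133 to 188). Erythroid nuclei stood at 156 CPM (111 to 213), forebrain GABAergic at 143 and mesenchyme-like at 120. The compared classes held 2192 of its E14 UMIs, and nuclei without a class held 5354. Thinned to 1000 UMIs, 13.1% of E14 thalamic-like nuclei and 13.6% of 22 erythroid nuclei held a UMI of it. The 22 erythroid nuclei are too few to tell whether these shares differ, and the summed thalamic-like level was 393 CPM (353 to 436). The medians before thinning were 4719 and 8993 UMIs. In the adult library 18.3% of 71 thalamic-like nuclei held one, against 0 of 231 oligodendrocyte-like nuclei, whose exact upper bound is 1.58%, with medians of 8781 and 2870 UMIs. Col25a1 is 468 kilobases long, and 5 annotated genes overlap it on the same strand.

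Col19a1, a fibril-associated collagen that interneurons are known to make, was highest in different classes of the libraries. In the adult it stood at 365 CPM (306 to 433) in inhibitory nuclei, in 14 of 25, and at 11.1 CPM in CA1, the next highest. At E14 it stood at 243 CPM (186 to 312) in 27 oligodendrocyte precursor-like nuclei, where 11 nuclei held 62 UMIs and 1 of them 14, and at 4.03 CPM in forebrain GABAergic nuclei. The 32 adult oligodendrocyte precursor-like nuclei held none, which makes the E14 level at least 21.3-fold higher at a floor of 3 counts. No E14 cluster was named for these precursors, so their Col19a1 level was not checked by clusters. Col19a1 was the first leading gene of an unnamed E14 cluster of 509 nuclei. The most common class there was radial glia, with 40 of 184 classed nuclei.

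Col11a1, a fibrillar chain of cartilage that also marks some neurons, stood in CA1 in the adult at 96.7 CPM (84.7 to 110) in 157 CA1 nuclei, at 27.1 CPM in CA3 and at 0.996 CPM in dentate granule nuclei, and the 235 CA1 UMIs came from 49 nuclei. Thalamic-like nuclei held none in the adult and 40.2 CPM at E14, at least 13.6-fold more. At E14 mural-like and mesenchyme-like nuclei held 220 and 200 CPM. In E14 cortical excitatory nuclei Col11a1 stood at 152 CPM (139 to 165), in 186 of 327, and in erythroid nuclei at 91.9 CPM (58.3 to 138). The adult microglia-like value of 69.4 CPM came from 17 UMIs of 1 nucleus.

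Col26a1 followed Col25a1 in the adult, at 122 CPM (88.5 to 163) in inhibitory and 97.8 CPM (79.5 to 119) in thalamic-like nuclei, with 0 UMIs in CA1, CA3 and dentate granule nuclei. The E14 thalamic-like level was 14.5 CPM, and the adult level 6.74-fold (3.76 to 13.1) higher. Col20a1 was spread over adult neurons, from 13.4 CPM in dentate granule to 2.77 CPM in inhibitory nuclei, with overlapping intervals. Col6a4 had 26 of its 34 neuronal UMIs in CA1, and Col22a1 had 22 in all adult neuronal nuclei.

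**Figure D4:**
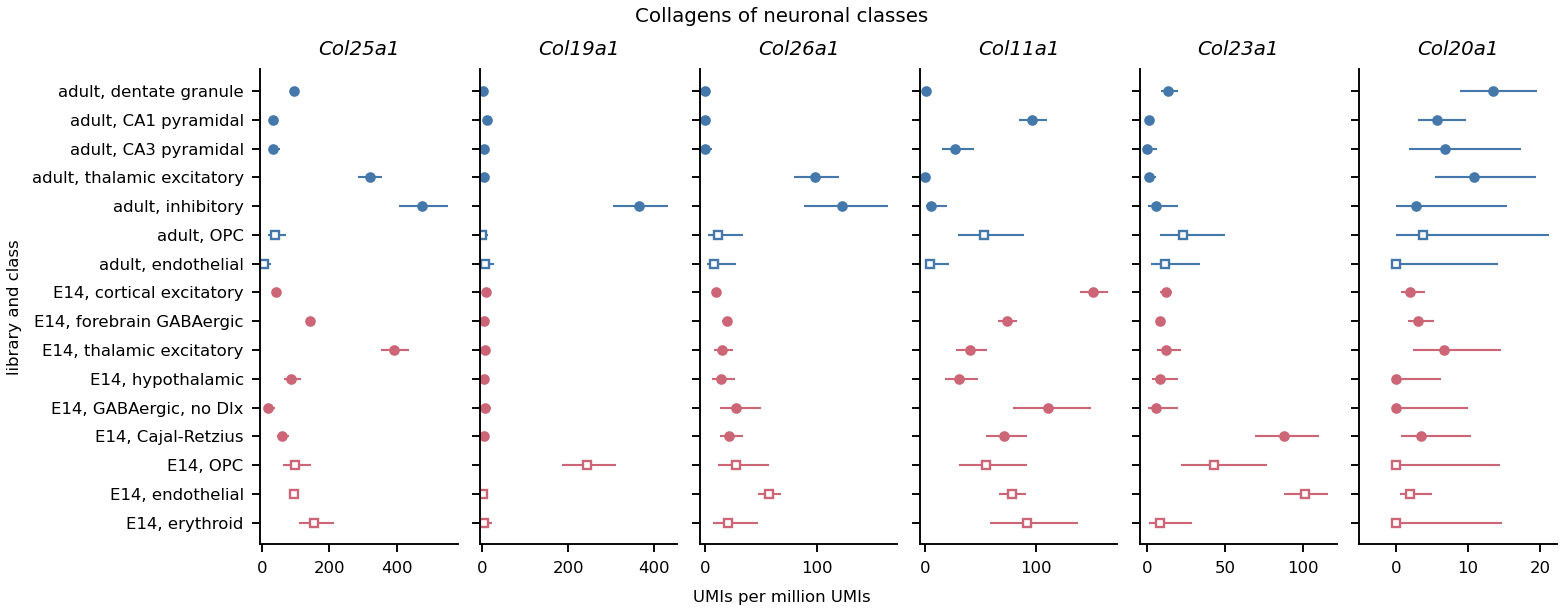
Points give the level of 6 collagens in CPM, each panel with its own axis, in neuronal classes (circles) and in a few other classes (open squares), with exact Poisson 95% intervals; adult in blue, E14 in red. Col25a1 was high in thalamic-like nuclei of both libraries, and Col19a1 in adult inhibitory (365) and E14 precursor-like (243) nuclei.

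Glia other than radial glia had a few collagens in the adult. Astrocytes held Col11a2 and Col9a3 at 49.4 CPM each, and oligodendrocyte precursor-like nuclei Col9a3 at 95.3 CPM (61.6 to 141) in 10 of 32 nuclei. Col9a3 in the precursor-like class was 8.10-fold (2.47 to 41.9) higher in the adult than at E14, from 25 adult and only 3 E14 UMIs. Col27a1, a fibrillar collagen of cartilage, was highest in microglia-like nuclei in the adult, at 126 CPM (85.9 to 180) in 22 of 52 nuclei with at most 3 UMIs each. That was 8.46-fold (4.30 to 17.6) above the E14 class of the same name. Microglia and macrophages share this class, and its first leading gene was Inpp5d in the adult and Mrc1 at E14. The 2 sides may therefore not hold the same mix of cells. Col15a1 stood at 49.0 CPM (25.3 to 85.5) in adult microglia-like nuclei, from 12 UMIs.

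The adult and E14 libraries were then set side by side within neurons and within endothelium. In neurons 25 of 40 collagens were at least 2-fold lower in the adult, against 25.2% of all genes, and 4 at least 2-fold higher, against 18.8%; the interval of the ratio was clear of 1 for 20 (22.5% of all genes) and for all 4 (17.5%). The median log2 ratio was -1.50 over the collagens and -0.17 over all genes. The 4 were Col6a4 (6.34-fold), Col19a1 (4.60), Col20a1 (3.30) and Col4a2 (2.30). By the mean over nuclei Col4a2 was at 1.28-fold and was no longer past 2-fold. Col5a2 had the lowest ratio, 0.00631, with 1 UMI in adult and 266 in E14 neurons. Col3a1 and Col1a1 had 0 UMIs in adult neurons and 87 and 33 at E14. Col5a2 in E14 neurons was 6.24% of its mesenchyme-like level, and 8.10% in erythroid nuclei. For Col3a1 these were 0.715% and 0.355%, and for Col1a1 0.660% and 0%. The part of free RNA in these differences was not tested. The classes pooled as neuronal are not the same in the libraries. Col25a1 stood at 123 and 118 CPM and did not differ by more than counting error.

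In endothelial-like nuclei 16 of 29 collagens were at least 2-fold lower in the adult, against 21.3% of all genes, and 5 at least 2-fold higher, against 17.4%; the interval was clear of 1 for 14 (13.9% of all genes) and 2 (14.3%). Col18a1 went from 266 CPM at E14 to 3.83 CPM in the adult (ratio 0.0144, 0.000363 to 0.0805), Col5a2 from 186 to 3.83 CPM and Col3a1 from 236 CPM to 0 of 260914 UMIs. Col4a1 was at 0.2 (0.166 to 0.239) and Col4a2 at 0.261 (0.206 to 0.327) of the E14 level. Col8a1, at 2.45 CPM at E14, and Col4a4, at 2.94 CPM, were the 2 higher in the adult with a clear interval, 20.3-fold (6.79 to 72.7) and 7.81-fold (2.09 to 29.2), from 13 and 6 adult UMIs. The adult side rests on 52 nuclei, so a gene at 1 UMI there has a wide interval.

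**Figure D5:**
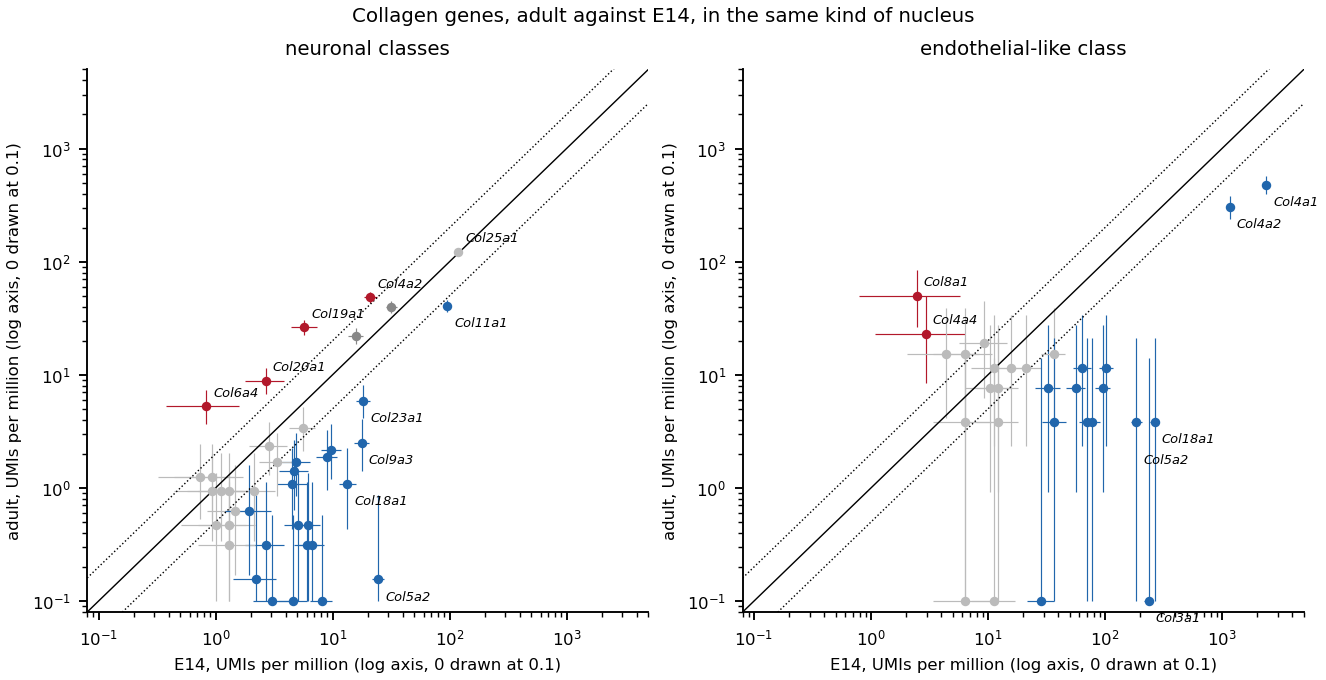
Each point is a collagen gene with at least 10 UMIs on both sides together, E14 level on the x axis and adult level on the y axis (CPM, log axes, 0 drawn at 0.1) with exact Poisson 95% intervals; the solid line marks equal levels and dotted lines 2-fold. Blue genes were at least 2-fold lower and red ones at least 2-fold higher in the adult with an interval clear of 1, dark grey ones were clear of 1 within 2-fold, and light grey ones were not clear of 1; in endothelial-like nuclei Col8a1 and Col4a4 are red.

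Over whole libraries 27 of 44 collagens were at least 2-fold lower in the adult (23.6% of all genes) and 4 at least 2-fold higher (17.6%), all with intervals clear of 1 (20.1% and 16.7% of all genes). The 4 were Col5a3, Col19a1, Col6a4 and Col20a1. Col3a1 had 1 adult UMI and 4359 at E14. Whole libraries differ in their classes, and fewer cells of a class and less RNA per cell cannot be told apart there.

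The machinery around collagens was read from 3 lists. Of 33 genes of collagen synthesis and processing, 17 were at least 2-fold higher in E14 mesenchyme-like nuclei (11.1% of all genes) and 4 lower (8.28%); Lox, which crosslinks collagen, stood at 31.8 CPM there and 0.927 elsewhere (34.3-fold), and Adamts2 and Pcolce, which act on the procollagen ends, were 7.04-fold and 6.20-fold higher. In E14 endothelial-like nuclei 10 were higher (12.4% of all genes) and 6 lower (9.76%), with Sparc, a collagen-binding glycoprotein, at 449 CPM. In adult endothelial-like nuclei 11 of 29 were higher (23.2% of all genes) and 6 lower (15.2%). The interval was clear of 1 for 8 (17% of all genes) and 2 (10.1%) of them. Serpinh1, the collagen chaperone, stood at 103 CPM there against 3.33. Of the collagen receptors 4 of 11 were higher in E14 mesenchyme-like nuclei (11.1% of all genes), among them Ddr2 at 119 CPM (15.6-fold), and 1 lower (8.28%). In E14 endothelial-like nuclei 4 of 11 were higher (12.4%), among them Itga1, a subunit of a collagen-binding integrin, at 372 CPM (20.6-fold), and 1 lower (9.76%). Itga1 stood at 502 CPM in adult endothelial-like nuclei.

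Of 15 basement membrane partners, 10 were higher in E14 mesenchyme-like nuclei (11.1% of all genes) and 1 lower (8.28%), 10 were higher in E14 endothelial-like nuclei (12.4%) and 11 in adult endothelial-like nuclei (23.2%), with 0 lower in either. The laminin chain Lama2 was 27.2-fold higher in the first, Lama4 13.1-fold in the second, and the linker protein Nid1 71.6-fold (36.8 to 146) in the third. Between the libraries, in endothelium, 3 of 14 were higher in the adult (17.4% of all genes) and 6 lower (21.3%), with Lama5 and Lamb2 4.16-fold and 4.09-fold higher. In neurons 0 of 15 were at least 2-fold higher in the adult (18.8% of all genes) and 9 were lower (25.2%).

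Overlap of gene models limits some values. Col10a1 lies within Nt5dc1 on the opposite strand, Col18a1 overlaps Slc19a1 and Col9a3 overlaps Tcfl5, so reads there are uncertain where strand was not used in counting. Other collagens overlap a gene on the same strand, such as Col1a2 with Gm43921 and Col26a1 with Gm20485. Counting by strand does not separate those. Removing likely doublets left 14 of the 16 endothelial collagens at least 2-fold lower in the adult and moved the Col3a1 mesenchyme-like ratio from 29.1 to 39.6.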

How the data were processed

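Both single-nucleus libraries were analysed. The authors deposited raw UMI counts per gene and barcode, made per the file headers with Cell Ranger 6.1.2 (adult) and 7.0.1 (E14); the genome is mm10. CellBender is given in the methods for the embryo only, while its deposited counts have a Cell Ranger header. Barcodes below 500 UMIs or at 5% mitochondrial UMIs and above were dropped, leaving (1609 of 1661 and 9036 of 9037 barcodes). A nucleus took the class whose markers exceeded the number its depth predicts by the most, given at least 3 markers, an excess of 1.5 and a lead of 0.75; these limits were set on class sizes and leading genes. Within 0.25 of that limit lay 83 classed adult and 392 classed E14 nuclei. Class markers held no collagens. Scrublet's own limit marked 6 and 4 nuclei (0.373% and 0.0443%), which is too few, so the 21 and 653 highest scores were removed as an alternative. UMIs were summed per class; levels have exact Poisson and ratios conditional exact binomial 95% intervals. Called means a ratio of at least 2 with at least 10 UMIs on both sides together, a side at 0 being set to 3 counts and called in the other side's favour only. The rule was tested on simulated data. Collagens with 10 UMIs in a library, the 3 leading members of other lists, class markers, Xist, Y-linked genes and Ttr may be named. The gene family, whose members follow from symbols, and the lists were chosen with earlier results of these data known. The comparisons of thalamic, precursor and microglial classes between libraries, and the counts of clear intervals, were added with their values known. Gene positions and overlaps are from GENCODE vM21. Tools were Python 3.11.15, scipy 1.17.1, R 4.3.3 and Seurat 5.3.0.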

Additional observations from a re-analysis of the deposited data

Results flagged for a closer look

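Col22a1 and Col26a1 stood on opposite sides in the 2 libraries when neuronal nuclei were set against the other classed nuclei; the difference itself was not tested. Col22a1 was 8.67-fold higher in adult neuronal nuclei (22 UMIs against 1) and at 0.226 of the other classes at E14, where radial glia and mesenchyme-like nuclei held it. Col26a1 was 7.05-fold higher in adult neuronal nuclei and at 0.191 of the other classes at E14, where the mesenchyme-like class held 581 of its UMIs. The classes on the other side are not the same in the 2 libraries, since no adult class of at least 20 nuclei is mesenchyme-like or radial glia.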

How the results depend on the processing

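No paired analysis was possible because each tissue is 1 library. Of 126 counts of called collagens under an alternative, 111 stayed within 1.5 times the value given and 15 did not. The share over all genes was taken only at the limits used above. The alternative counts therefore cannot be set against genes at large. With a 4-fold limit, the counts were 2 higher and 16 lower in adult over E14 neurons, 0 higher in E14 neurons, 4 in E14 endothelium, 8 in adult endothelium, 1 over the whole adult library and 2 in adult over E14 endothelium. With doublets removed, the count higher in E14 neurons was 0 and that higher in adult over E14 endothelium 3, and 0 with 2 markers per nucleus for the first. The mean over nuclei gave 9 in adult endothelium, where Col5a2, Col27a1, Col5a3, Col18a1 and Col4a5 turned to the other side, and 3 in adult over E14 endothelium, where Col12a1 and Col14a1 did. With 20 UMIs these 2 were 9 and 1, and with 3 UMIs the second was 8. Of 197 ratios of named genes, 174 moved by less than their counting error, 21 moved by more on the same side and 2 turned: Col25a1 in thalamic-like nuclei, adult over E14, went from 0.814 to 1.20 with classes from clusters, and Col4a1 in neuronal nuclei from 1.25 to 0.692 by the mean over nuclei; the cause was not tested. A gene under 10 UMIs in a class of 20 to 60 nuclei cannot be ranked at this depth.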
